A study of Mus musculus with 6 samples.

Results

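Cholesterol efflux and liver X receptor (LXR) genes were examined in alveolar macrophages (AMs), the phagocytes of the alveolar space that take up and break down lung surfactant lipid. The group was a list of 10 genes, chosen by name and not by level, out of 24341 genes in the deposited table: the receptors Nr1h2 and Nr1h3, the apolipoproteins Apoe and Apoc1, the transporters Abca1 and Abcg1, and Arl4c, Mylip, Lpcat3 and Soat1. AMs were washed out of the lungs of untreated female C57BL/6 mice aged 6 to 10 weeks by bronchoalveolar lavage (BAL), and red blood cells were lysed. Their RNA was sequenced in 3 CD44+/+ and 3 CD44-/- samples, each a pool of mice, where CD44 is the surface receptor through which AMs bind hyaluronan. The comparison asks which transcripts differ in AMs that lack CD44. Each value is an FPKM, a fragment count normalised for transcript length and for the number of mapped fragments, and no sorting step stands between the lavage and the RNA.

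LXRs are nuclear receptors that bind oxysterols, oxidised forms of cholesterol, and act on DNA as a pair with a retinoid X receptor (RXR). When loaded with these ligands, they raise the transcription of genes that move cholesterol out of the cell. In macrophages, the transporters ABCA1 and ABCG1 pass cholesterol and phospholipid to apolipoproteins and to high density lipoprotein particles, and secreted ApoE can itself accept it. Other LXR targets cut the uptake of lipoproteins or change the fatty acids of membrane phospholipids.

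Cd44 was the check of the labels, with 534 FPKM ± 6.68 (SD, n = 3) in CD44+/+ AMs and 53.5 ± 1.87 in CD44-/- AMs, and no sample overlapped with the other genotype. Relative depth, estimated from the commonest ratio between samples of values under 0.05 FPKM, lay between 0.814 and 1.05 times that of CD44+/+ replicate 1. All 10 AM markers (among them Siglecf, Marco and Pparg) were present, and their summed level was 16965 to 19701 FPKM in CD44+/+ samples and 16467 to 20709 in CD44-/- samples. Most of this sum was Chil3, at 10700 to 13500 FPKM in CD44+/+ and 10300 to 14200 in CD44-/- samples, so it says little about the other markers. Of the 10, Itgax was higher and Mrc1 and Krt79 lower in CD44-/- AMs without overlap, none with an adjusted p under 0.05 by limma. Both samples numbered 2 stood apart in erythroid genes, whose summed level was 5.62 to 38.3 FPKM in CD44+/+ and 6.26 to 110 in CD44-/- samples, so the calls are also given without them.

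Apoe and Arl4c rose in CD44-/- AMs, and none of the other 8 genes passed the test in either direction. Apoe had the largest difference of the list at 3.10 times the CD44+/+ mean, followed by Arl4c at 2.03, Apoc1 at 1.82 and Abca1 at 1.44 times. The samples of both genotypes overlapped for Abcg1, Lpcat3, Soat1 and Nr1h2. The test was limma on log2(FPKM + 0.1) with Benjamini-Hochberg adjustment over the 10800 genes whose mean over the 6 samples reached 0.5 FPKM, and all 10 genes passed this filter. At an adjusted p under 0.05, 2 of the 10 were called, both higher, against 0.111% of all genes tested in either direction, 0.0741% in the higher and 0.037% in the lower direction. With the replicate number as a block, or without CD44+/+ replicate 2 or CD44-/- replicate 2, 0 of the 10 were called. The values of CD44+/+ and CD44-/- samples did not overlap for 6 of the 10 genes, all higher in CD44-/- AMs, against 11.6% of all genes tested in either direction, 6.75% in the higher and 4.88% in the lower direction. The same 6 genes (Apoe, Arl4c, Apoc1, Abca1, Nr1h3 and Mylip) had an unadjusted p under 0.05, against 7.69% of all genes tested, 4.75% in the higher and 2.94% in the lower direction. The median log2 fold change of the 10 genes was 0.25, and that of all genes tested was 0.01. These shares set a list chosen with earlier results of these data known beside all genes, and were not tested.

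**Figure D1:**
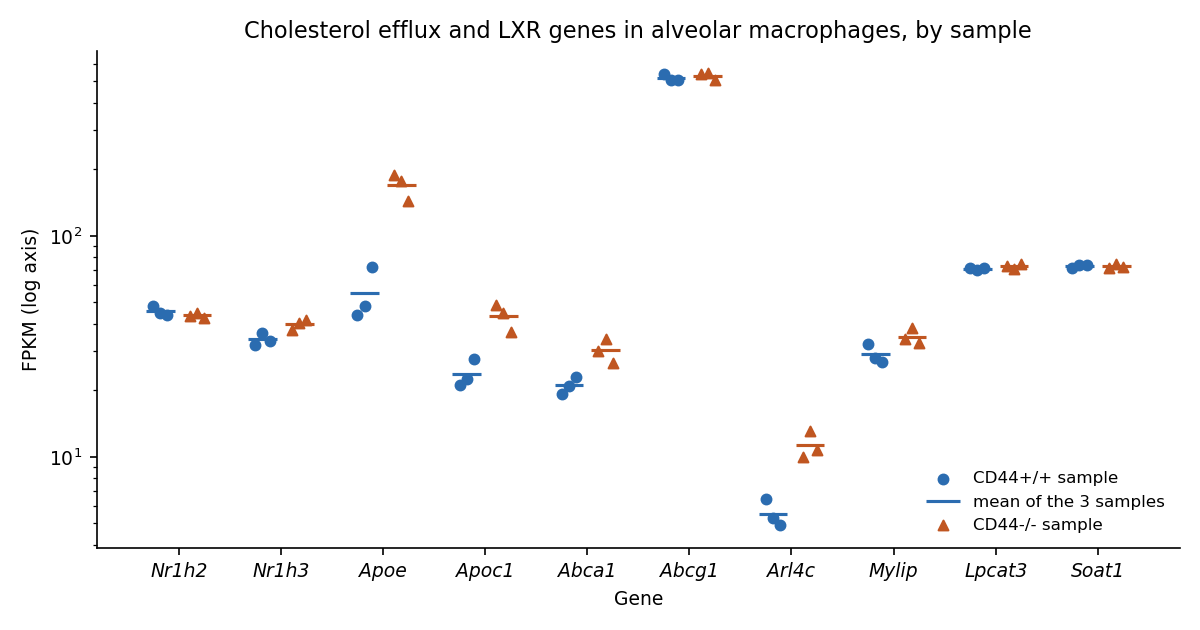
FPKM of the 10 genes (log axis) in each of the 3 CD44+/+ samples (circles) and 3 CD44-/- samples (triangles), replicates 1 to 3 from left to right, with the mean of each genotype as a line. The 2 genotypes are furthest apart for Apoe and Arl4c, and the points of Abcg1, Lpcat3 and Soat1 lie at one level.

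The LXR receptors were both present. Nr1h2 encodes LXRβ, the receptor found in most tissues, and was at 48.2, 44.6 and 43.8 FPKM in CD44+/+ replicates 1 to 3 and 43.5, 44.9 and 42.6 FPKM in CD44-/- replicates 1 to 3. These values overlapped, and the log2 fold change (CD44-/- over CD44+/+) was -0.06 (SE 0.06, adjusted p = 0.925 by limma), with a 95% interval for the fold of 0.879 to 1.05. Nr1h3 encodes LXRα, which is enriched in liver and macrophages, and was at 32.2, 36.3 and 33.6 FPKM in CD44+/+ and 37.3, 40.5 and 41.4 FPKM in CD44-/- replicates. Every CD44-/- sample lay above every CD44+/+ sample, but by a margin smaller than the range within either genotype. The log2 fold change of 0.22 (SE 0.07) did not pass the adjustment (adjusted p = 0.415 by limma). Under median-ratio scaling and quantile normalization the Nr1h3 values of both genotypes overlapped, and under median-ratio scaling those of Nr1h2 did not (lower in CD44-/- AMs).

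The ratio of the 2 receptors within a sample does not depend on a scaling factor of that sample. Nr1h3 stood at 0.668, 0.815 and 0.766 times Nr1h2 in CD44+/+ replicates 1 to 3 and at 0.857, 0.902 and 0.972 times in CD44-/- replicates. Nr1h2 thus exceeded Nr1h3 in all 6 samples, with a smaller gap in each CD44-/- sample. The log2 ratio was higher by 0.28 in CD44-/- AMs (exact two-sided permutation test, p = 0.1, the smallest that 3 samples against 3 allow). Nr1h3 lies on chromosome 2 (91184061 to 91202829, GRCm38.p6), 11.61 Mb from Cd44, and its span overlaps that of Acp2 on the other strand with 0 shared exon bases. Acp2, a lysosomal acid phosphatase gene, was at 37.0 ± 1.99 FPKM in CD44+/+ and 40.7 ± 0.361 in CD44-/- AMs, also without overlap (log2 fold change 0.14, adjusted p = 0.598 by limma).

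Apoe encodes a secreted apolipoprotein that takes up cellular cholesterol and is a ligand of lipoprotein receptors. It was at 43.9, 48.3 and 72.6 FPKM in CD44+/+ replicates 1 to 3 and at 189, 178 and 144 FPKM in CD44-/- replicates 1 to 3. The lowest CD44-/- sample lay far above the highest CD44+/+ sample, CD44+/+ replicate 3. The means were 54.9 ± 15.5 and 170 ± 23.5 FPKM (SD, n = 3), and the log2 fold change was 1.66 (SE 0.18, adjusted p = 0.0128 by limma), with a 95% interval for the fold of 2.38 to 4.18. Ranked by level among the genes tested, Apoe stood at place 1554 in CD44+/+ and 467 in CD44-/- AMs. Deviations of same-numbered samples from their genotype means correlated only weakly over all genes (0.132 to 0.212). For Apoe, replicate 3 instead was the highest of CD44+/+ and the lowest of CD44-/- AMs. With the replicate number as a block the SE of Apoe was 0.20 and its adjusted p 0.0943 by limma, so that its call was lost. It was also lost without CD44+/+ replicate 2 (adjusted p = 0.0712) or CD44-/- replicate 2 (adjusted p = 0.0958), at log2 fold changes of 1.58 and 1.62.

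Apoc1 encodes a small exchangeable apolipoprotein and lies beside Apoe. It was at 21.1, 22.5 and 27.8 FPKM in CD44+/+ and at 48.5, 44.6 and 36.8 FPKM in CD44-/- replicates 1 to 3. The genotypes did not overlap, and the 3 samples of each genotype stood in the same order as for Apoe, with replicate 3 the highest of CD44+/+ and the lowest of CD44-/- AMs. The log2 fold change was 0.86 (SE 0.12, adjusted p = 0.0626 by limma), which did not pass the threshold. Without CD44+/+ replicate 3 it was 0.98, and this passed (adjusted p = 0.0352 by limma). Under the other 15 of 16 alternative settings and sample sets Apoc1 did not pass. Among these, its adjusted p by limma was 0.319 without CD44+/+ replicate 2, 0.339 without CD44-/- replicate 2 and 0.162 with the replicate block.

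The difference in Apoe exceeded that in Apoc1 in these samples. Apoe stood at 2.08, 2.15 and 2.61 times Apoc1 in CD44+/+ replicates 1 to 3 and at 3.90, 3.99 and 3.91 times in CD44-/- replicates. The ratio was nearly one value in the 3 CD44-/- samples (SD 0.0178 on the log2 scale) and more spread in CD44+/+ AMs (SD 0.179). The log2 ratio was higher by 0.79 in CD44-/- AMs (exact two-sided permutation test, p = 0.1, the smallest possible).

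Apoe (chr7:19696244-19701310) and Apoc1 (chr7:19689480-19692659, both GRCm38.p6) belong to an apolipoprotein gene cluster, and the nearest 3 tested genes on each side were read out beside them. Apoc2, the cofactor of lipoprotein lipase, lies 18.3 kb from the span of Apoe and shares its row with the Apoc4-Apoc2 readthrough transcript. It was at 0.280, 0.896 and 1.42 FPKM in CD44+/+ and 2.67, 1.53 and 1.48 FPKM in CD44-/- replicates, without overlap and with a log2 fold change of 1.21 (SE 0.47, adjusted p = 0.580 by limma). Its level was far below that of its neighbours, and its interval was correspondingly wide. Tomm40, a mitochondrial import channel gene whose span lies 2 bases from that of Apoe, was at 33.4 ± 1.08 and 34.6 ± 1.17 FPKM (log2 fold change 0.05), with overlap. Relb and Clptm1 on the far side of the cluster had log2 fold changes of 0.00 and 0.04.

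On the other side, Nectin2 (listed as Pvrl2), an adhesion molecule gene, was at 1.67, 1.74 and 3.12 FPKM in CD44+/+ and 2.92, 3.08 and 2.59 FPKM in CD44-/- replicates, which overlapped (log2 fold change 0.43, adjusted p = 0.731 by limma). Bcam, a laminin receptor gene 54.8 kb from the span of Apoe, was at 6.48, 6.62 and 10.5 FPKM in CD44+/+ and 12.7, 15 and 12.9 FPKM in CD44-/- replicates. Its values did not overlap, and its log2 fold change of 0.81 (SE 0.17) did not pass the adjustment (adjusted p = 0.234 by limma). CD44+/+ replicate 3 was the highest CD44+/+ sample for Apoc2, Apoc1, Apoe, Nectin2, Bcam and Relb, and not for Tomm40 or Clptm1. The neighbours with the larger differences thus did not form one unbroken run, since Tomm40 lies between Apoe and Nectin2.

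**Figure D2:**
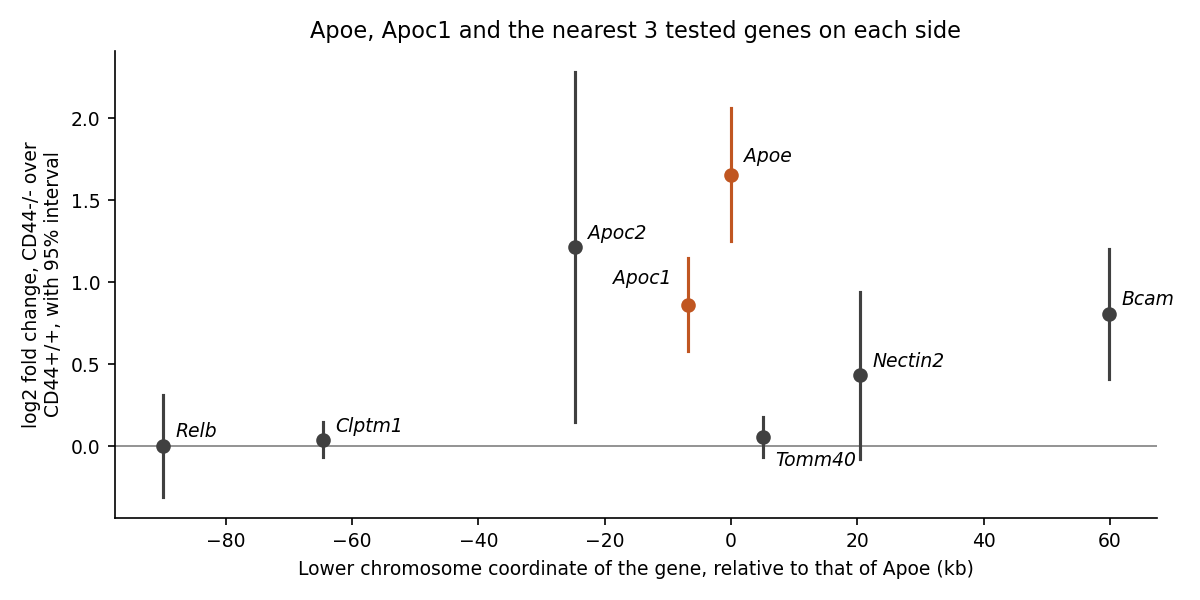
log2 fold change (CD44-/- over CD44+/+, with 95% interval) of Apoe, Apoc1 (both orange) and the nearest 3 tested genes on each side (grey), against the lower chromosome coordinate of each gene relative to that of Apoe in kb. Tomm40, the gene nearest to Apoe on the right, sits at 0.05 while Apoe sits at 1.66.

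The genes whose pattern over the 6 samples was most like that of Apoe were found by the root mean square difference of centred log2 values. Stk39, a kinase gene, was nearest at 0.1996 log2 units, followed by Tcp11l1 at 0.2505 and Tanc1 at 0.341, and Apoc1 at 0.411 was also among the nearest 5. Stk39, Tcp11l1 and Tanc1 lie on chromosome 2, as does Cd44. Their levels were far below that of Apoe, with 1.73 FPKM for Stk39 in CD44+/+ and 5.57 in CD44-/- AMs. Only 1 of the genes tested lay within 0.2 of Apoe.

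The efflux transporters differed from each other. Abca1, which loads lipid-poor apolipoproteins, was at 19.3, 20.9 and 22.9 FPKM in CD44+/+ and 30.2, 34.3 and 26.5 FPKM in CD44-/- replicates 1 to 3. The genotypes did not overlap, and the log2 fold change was 0.52 (SE 0.10, 95% interval 0.29 to 0.75), short of the threshold (adjusted p = 0.158 by limma). Abcg1, which passes cholesterol to mature lipoprotein particles and serves surfactant lipid turnover in AMs, was at 540, 508 and 507 FPKM in CD44+/+ and 543, 544 and 508 FPKM in CD44-/- replicates. These values overlapped, with a log2 fold change of 0.04 (SE 0.05, adjusted p = 0.966 by limma) and a 95% interval for the fold of 0.945 to 1.11. Abcg1 was the most abundant of the 10 genes in both genotypes, at place 121 of all genes tested in CD44+/+ and 114 in CD44-/- AMs.

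Abca1 stood at 0.0357, 0.0411 and 0.0452 times Abcg1 in CD44+/+ replicates 1 to 3 and at 0.0556, 0.0631 and 0.0522 times in CD44-/- replicates. Abcg1 thus outweighed Abca1 many times over in every sample, by less in CD44-/- AMs. The log2 ratio was higher by 0.49 in CD44-/- AMs (exact two-sided permutation test, p = 0.1, the smallest possible). Of the 10800 genes tested, 221 lay within 0.2 of Abca1. The nearest were Stra6l at 0.0617, Tfrc at 0.0788, Ffar2 at 0.0910, Irgc1 at 0.0937 and C3ar1 at 0.0959. The limit is an absolute distance, so genes with small differences can lie within it of Abca1, whose own difference was modest. This count is therefore no measure of a shared pattern and does not compare with that of Apoe.

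**Figure D3:**
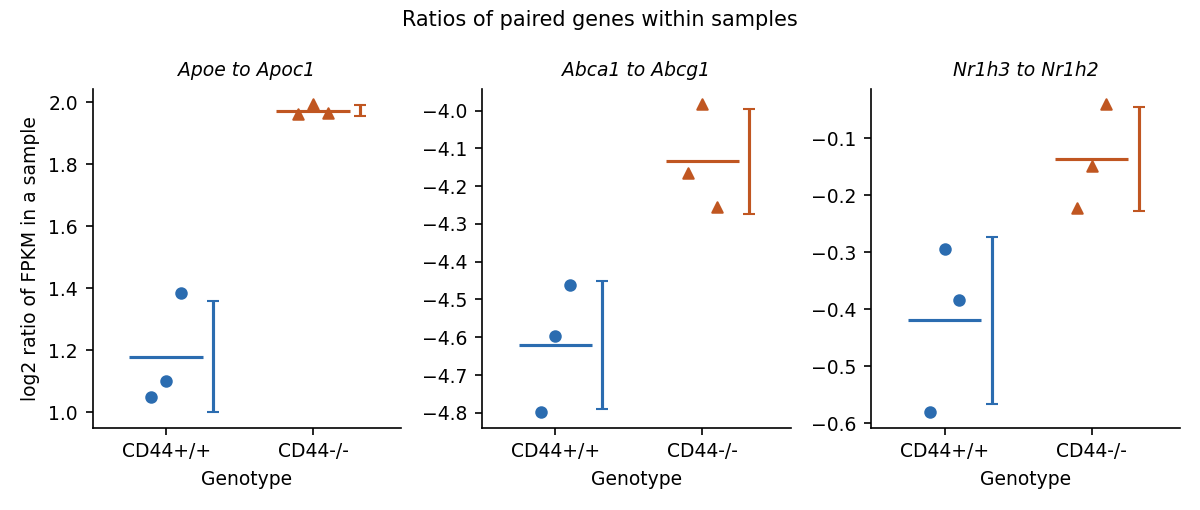
log2 ratio of FPKM of Apoe to Apoc1, Abca1 to Abcg1 and Nr1h3 to Nr1h2 within each sample (circles CD44+/+, triangles CD44-/-, replicates 1 to 3 from left to right), with the mean as a line and the SD as an error bar (n = 3). In each of the 3 panels, with its own axis range, all CD44-/- samples lie above all CD44+/+ samples.

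Arl4c encodes a small GTPase that aids the transport of cholesterol towards the cell surface. It was the least abundant of the 10 genes, at 6.44, 5.26 and 4.90 FPKM in CD44+/+ and 9.97, 13.1 and 10.7 FPKM in CD44-/- replicates 1 to 3. No CD44-/- sample came near the CD44+/+ range. The means were 5.53 ± 0.806 and 11.3 ± 1.64 FPKM (SD, n = 3), and the log2 fold change was 1.01 (SE 0.13, 95% interval 0.71 to 1.31, adjusted p = 0.0427 by limma). With the replicate number as a block the adjusted p was 0.103, and the call was lost. It was also lost without CD44+/+ replicate 2 (adjusted p = 0.221), CD44+/+ replicate 3 (0.0976), CD44-/- replicate 2 (0.166) or CD44-/- replicate 3 (0.187), over log2 fold changes of 0.90 to 1.04.

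The bases before the start sites of Abca1, Apoe and Arl4c are shown because these genes had large differences between the genotypes and are genes that LXR is known to act on. They were taken from RefSeq (GRCm38.p6, the assembly also called mm10), where 8 of the 10 genes had a window of 300 bases, in 11 windows, and Apoc1 and Abcg1 had none. Capitals mark matches to a loose LXR direct repeat, GGTNA and again GGTNA after 5 bases, and to the TATA box, TATAAA. The 250 bases before each start are printed 5′ to 3′ on the strand of the gene.
Abca1, chr4:53159896-53160145, minus strand: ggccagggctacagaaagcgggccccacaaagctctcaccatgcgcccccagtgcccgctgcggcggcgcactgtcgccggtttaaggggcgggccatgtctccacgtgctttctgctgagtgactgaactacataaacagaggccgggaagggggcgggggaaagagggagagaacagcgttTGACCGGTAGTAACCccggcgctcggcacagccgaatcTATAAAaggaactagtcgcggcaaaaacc
Apoe, chr7:19699189-19699438, minus strand: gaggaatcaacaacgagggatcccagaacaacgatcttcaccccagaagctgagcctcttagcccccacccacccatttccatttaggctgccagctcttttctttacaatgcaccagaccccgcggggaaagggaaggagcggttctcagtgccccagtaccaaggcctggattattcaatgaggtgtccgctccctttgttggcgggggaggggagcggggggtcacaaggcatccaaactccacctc
Arl4c, chr1:88702192-88702441, minus strand: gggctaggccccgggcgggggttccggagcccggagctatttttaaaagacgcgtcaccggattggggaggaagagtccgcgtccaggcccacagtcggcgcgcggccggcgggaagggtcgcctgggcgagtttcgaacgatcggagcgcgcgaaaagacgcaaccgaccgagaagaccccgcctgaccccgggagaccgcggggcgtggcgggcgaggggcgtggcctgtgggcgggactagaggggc

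The loose repeat, searched on both strands, was in 236 of 32851 windows of all genes (0.718%) and in 1 of the 11 windows of these genes, that of Abca1. There it lay on the opposite strand, from base -67 to -53 before the start, with the TATA box from base -29 to -24. The Apoe and Arl4c windows shown held neither motif. The strict repeat, AGGTCA and again AGGTCA after 4 bases, was in 5 windows of all genes (0.0152%) and in 0 of the 11, and its AGGTCA half-site was in 16.3% of all windows and in 0 of the 11. TATAAA was in 13.6% of all windows and in 3 of the 11, the others being an alternative Apoe start and that of Mylip. A match describes these letters only, and LXR elements outside the windows were not searched.

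Of the remaining LXR targets, Mylip encodes a ubiquitin ligase (IDOL) that sends lipoprotein receptors for degradation. It was at 32.3, 28.0 and 26.9 FPKM in CD44+/+ and 34.2, 38.1 and 32.7 FPKM in CD44-/- replicates. The genotypes did not overlap, but CD44-/- replicate 3 and CD44+/+ replicate 1 were nearly level. The log2 fold change of 0.27 (SE 0.08) did not pass the adjustment (adjusted p = 0.470 by limma).

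Lpcat3 puts polyunsaturated fatty acids into membrane phospholipids. It was at 71.3, 70.3 and 71.2 FPKM in CD44+/+ and 72.9, 71.1 and 74.8 FPKM in CD44-/- replicates, which overlapped (log2 fold change 0.04, SE 0.05, adjusted p = 0.951 by limma, 95% interval for the fold 0.957 to 1.10). Lpcat3 shares 334 of its 3268 exon bases with Emg1 on the other strand, and whether strand was used in counting is not given in the sources used here. Emg1 was at 49.8 ± 1.91 and 47.8 ± 0.693 FPKM.

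Soat1 encodes the enzyme that esterifies cholesterol for storage in lipid droplets, the opposite fate to efflux. It was at 71.9, 74.1 and 73.5 FPKM in CD44+/+ and 71.3, 74.7 and 72.5 FPKM in CD44-/- replicates. The samples of both genotypes were intermixed, with a log2 fold change of -0.01 (SE 0.05, adjusted p = 0.989 by limma) and a 95% interval for the fold of 0.926 to 1.07. Its sign turned when CD44+/+ replicate 2 or CD44-/- replicate 1 was left out.

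**Figure D4:**
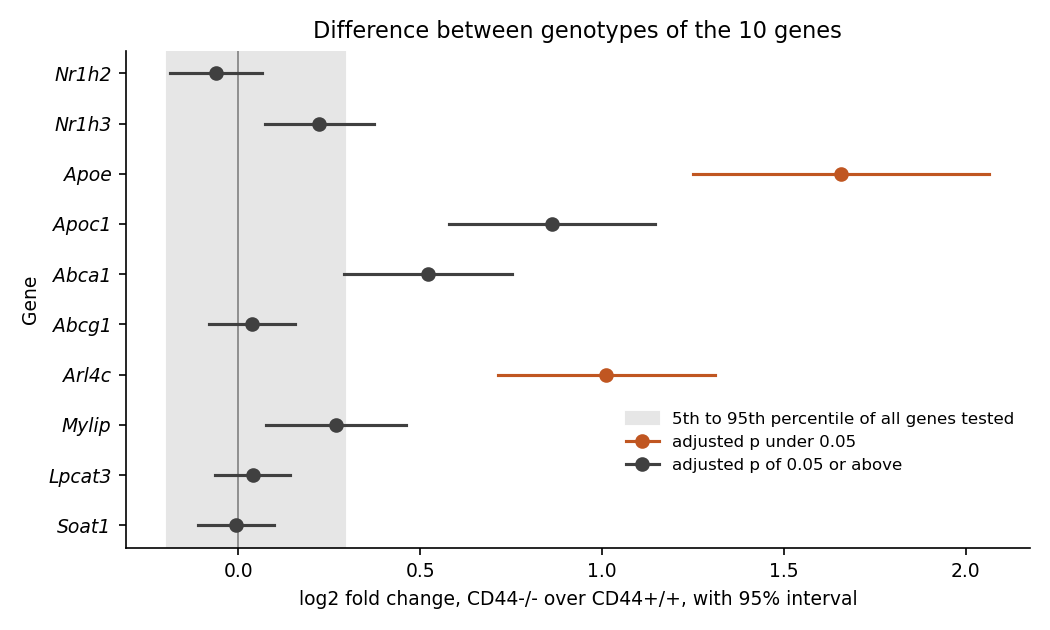
log2 fold change (CD44-/- over CD44+/+) of the 10 genes with its 95% interval, on the log2(FPKM + 0.1) scale. The shaded band spans the 5th to 95th percentile of all genes tested (-0.20 to 0.29). Apoe and Arl4c, the genes with an adjusted p under 0.05, and Apoc1 and Abca1 have their point beyond this band.

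By level per transcript length, the order in CD44+/+ AMs was Abcg1, Soat1, Lpcat3, Apoe, Nr1h2, Nr1h3, Mylip, Apoc1, Abca1 and Arl4c. The ranges of neighbours overlapped from Lpcat3 to Nr1h2 and from Nr1h3 to Abca1, so the order within these runs is not fixed by 3 samples. In CD44-/- AMs, Apoe stood second after Abcg1 and above the range of Lpcat3. Lpcat3 and Soat1 overlapped there, as did each pair of neighbours in the run Nr1h2, Apoc1, Nr1h3, Mylip and Abca1. Arl4c was last in both genotypes, clear of the gene above it.

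A wider list of 45 genes of cholesterol transport and the LXR pathway gave the setting of these differences. Of the 45, 31 were tested and 14 were too low, with no sample above 0.406 FPKM. None of the 31 passed an adjusted p under 0.05 by limma, nor under any other filter, scaling, block or sample set run on the list, and 6 had an unadjusted p under 0.05 (4 higher and 2 lower, against 7.69% of all genes tested). The log2 fold change was positive for 18 and negative for 13, and the median was 0.02. Values did not overlap for 9 of the 31, of which 5 were higher and 4 lower, against 11.6% of all genes tested, 6.75% higher and 4.88% lower.

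Among the partners and cofactors of LXR, 1 of 7 tested genes had an unadjusted p under 0.05, against 7.69% of all genes tested. This was Rxra, the main RXR of macrophages, at 106, 101 and 102 FPKM in CD44+/+ and 116, 111 and 113 FPKM in CD44-/- replicates (log2 fold change 0.14, adjusted p = 0.484 by limma). Its genotypes did not overlap. Rxrb overlapped (log2 fold change 0.11). The oxysterol-making enzymes Cyp27a1 and Ch25h both overlapped between the genotypes.

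Of the lipoprotein receptors on which the Mylip product acts, Lrp8 overlapped (log2 fold change 0.08), and Vldlr was not tested, with no sample above 0.0266 FPKM.

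The genes of lysosomal cholesterol export stood level: Npc1, Npc2 and Lipa had log2 fold changes of 0.04, 0.02 and -0.03, and all 4 tested genes of this role overlapped. Nceh1, which frees cholesterol from its esters, had -0.06, also with overlap. All 4 other transporters tested overlapped, each with a log2 fold change between -0.10 and -0.04. Of the phospholipid remodelling genes, Lpcat1 was at 3.05, 2.69 and 3.55 FPKM in CD44+/+ and 4.51, 3.81 and 3.71 FPKM in CD44-/- replicates, without overlap (log2 fold change 0.37, adjusted p = 0.532 by limma). Lpcat4 had 0.12 (adjusted p = 0.827 by limma), without overlap.

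The remaining LXR targets differed in sign, and none passed the test. Srebf1, the regulator of fatty acid synthesis, and Mertk, a receptor for dying cells, had log2 fold changes of 0.10 and 0.14 (adjusted p = 0.774 and 0.624 by limma). Lpl, the lipoprotein lipase gene, and Smpdl3a, a phosphodiesterase gene, had -0.19 and -0.13 (adjusted p = 0.672 and 0.645 by limma). Srebf1, Lpl and Smpdl3a did not overlap between the genotypes, and Mertk did.

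**Figure D5:**
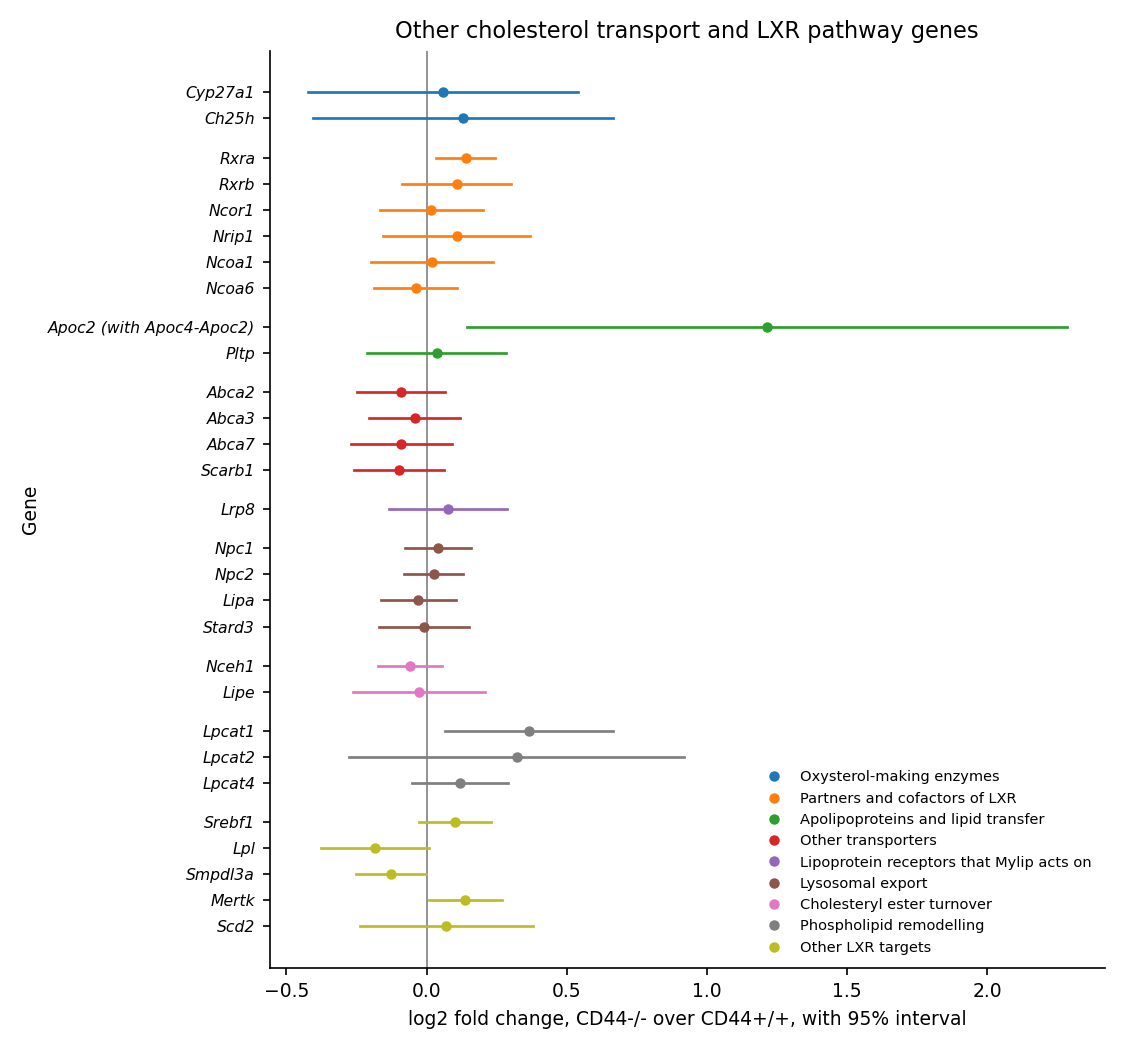
log2 fold change (CD44-/- over CD44+/+) of 29 of the 31 tested genes of the wider list with 95% intervals, coloured by role. Apoc2 at 1.21 is the point furthest from 0, and none of the 31 had an adjusted p under 0.05.

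Summed markers of other macrophages had the same sign of difference as Apoe. The summed level of 10 monocyte and interstitial macrophage markers was 15.4 to 17.4 FPKM in CD44+/+ and 20.7 to 22.2 FPKM in CD44-/- samples. Of these 10, 6 reached the filter and were tested, and 4 of the 6 did not overlap and were higher in CD44-/- AMs, among them C1qa (1.09 to 2.08 against 2.78 to 3.26 FPKM), C1qc (0.813 to 1.79 against 1.87 to 2.60) and Ms4a7 (5.79 to 6.57 against 7.09 to 7.27), and none of the 4 had an adjusted p under 0.05 by limma. Of all genes tested, 11.6% did not overlap and 6.75% were higher without overlap. Ly6c2, Folr2 and Lyve1 were at or below 0.263 FPKM in every sample. The part of such cells in the differences of Apoe, Apoc1 and Abca1 was not tested, and in a bulk sample more cells of a type and more RNA per cell cannot be told apart.

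Summed markers of the other cell types overlapped between the genotypes. They came to 62.6 to 102 FPKM in CD44+/+ and 74.7 to 84.9 FPKM in CD44-/- samples for 6 neutrophil markers, of which Csf3r was higher in CD44-/- AMs without overlap, and to 855 to 1418 and 660 to 1155 FPKM for airway secretory cells. Alveolar type 2 cell markers came to 64.8 to 78.6 and 67.0 to 145 FPKM, with Sftpc at 74.2 FPKM in CD44-/- replicate 3, the CD44-/- sample with the lowest Apoe, and only Sftpb of the 8 was without overlap (higher). T cell markers summed to at most 1.87 FPKM, B cell markers to at most 0.535 and dendritic cell markers to at most 8.57 in any sample, and both eosinophil markers were listed at 0 in all 6 samples.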

How the data were processed

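RNA of AMs from the BAL of 3 CD44+/+ and 3 CD44-/- pools of mice was sequenced as paired-end reads from a stranded mRNA kit. STAR was the authors' aligner (mm10), and the FPKM values they deposited are those of Cufflinks, which carry their normalization for depth and transcript length. The files give no counts, so the depth behind a value is unknown beyond the relative depth given. The deposited columns of the authors' own comparison (Cuffdiff fold changes, p-values and q-values) were not used. Their name and position columns are in another order than the values (0 rows match), so positions come from RefSeq (GRCm38.p6) and exon overlaps from GENCODE.

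Of 24341 genes, 10800 whose mean reached 0.5 FPKM were compared on log2(FPKM + 0.1), which understates the change of low genes, by limma 3.58.1 (lmFit, eBayes with a trend, two-sided) in R 4.3.3, after a check on simulated data. A gene was called at an adjusted p under 0.05. Of the identifiers, 101 hold several gene names, and 1 row with a missing value was left out. Single ratios were compared by the exact permutation test, whose smallest p is 0.1 for 3 against 3.

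The replicate numbers come from the sample titles. The deviations of same-numbered samples from their genotype means correlated at 0.212, 0.132 and 0.211 over all genes tested, and the replicate block was therefore fitted as an alternative. The study calls the samples independent pools, without tying pool sizes to replicate numbers. The list members, the wider list and the marker lists were chosen with earlier results of these data known. Genes of the wider list were named if Rxra, Rxrb, Srebf1, Vldlr, Lrp8, Npc1, Npc2, Lipa or Nceh1, or if they had an unadjusted p under 0.05 or no overlap. The like genes were the 5 nearest of each pattern, and the neighbours were the nearest 3 tested on each side. Some genes that meet these rules are not reported here. Alternatives were other pseudocounts, filters, scalings, eBayes settings, the block and leaving out each sample.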

Additional observations from a re-analysis of the deposited data

How the results depend on the processing

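Each of the 10 genes was refitted under 16 alternatives, and the log2 fold changes of all but Soat1 kept their sign in each of these. Without a filter on low values 7 genes were called among all genes instead of 12, and 0 of the 10 members instead of 2, with adjusted p = 0.147 for Apoe (log2 fold change 1.66) and 0.188 for Arl4c (1.01). Without an eBayes trend 0 members were called (adjusted p = 0.114 and 0.139), with robust eBayes 1 (Apoe at 0.134), and with the replicate block 0 (Apoe 0.0943, Arl4c 0.103); the block changed no other call among the 10 genes. Leaving out 1 sample gave 6 to 36 genes called among all genes (6 without CD44-/- replicate 2, 36 without CD44+/+ replicate 1) and 0 to 2 members. The log2 fold change of Apoe then ranged from 1.51 to 1.88, of Arl4c from 0.90 to 1.12 and of Apoc1 from 0.78 to 0.98. Soat1 ranged from -0.025 to 0.0085 and turned sign without CD44+/+ replicate 2 (0.0025) or CD44-/- replicate 1 (0.0085). Without both samples numbered 2, chosen after seeing their erythroid genes, 2 genes and 0 members were called (Apoe 1.55, adjusted p = 0.211; Arl4c 0.87, adjusted p = 0.510). The causes of these changes were not tested, and the smaller number of samples cannot be told apart here from the particular samples left out. Of unadjusted calls, 61.7% were higher without scaling, 51.4% with median-ratio scaling and 50.5% with quantile normalization, where the median log2 fold change of all genes went from 0.013 to -0.0037 and -0.0043. With 3 samples a genotype and no counts, a difference as small as that of Nr1h3 or Mylip was not settled.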
